A study of Mus musculus with 6 samples.

Results

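The stefin A cluster is a run of small genes on mouse chromosome 16 that encode inhibitors of cysteine proteases. The 6 members described here are Stfa1, Stfa2, Stfa3, Stfa2l1, BC100530 and Gm5483, taken by symbol from a table of read counts with 24391 gene rows and a table of FPKM values with 23284 gene rows, and all 6 had a row in both. They were chosen because earlier results of these data showed lower levels of several of them in CCL5-/- libraries, so that contrast is described below and not tested for them. RNA came from tumour-associated macrophages (TAMs) that were sorted out of colorectal tumours of BALB/C mice, using CD11b (an integrin) and F4/80 (a macrophage surface protein). Cells with high CD11b and low F4/80, here F4/80low, gave 2 libraries from wild-type mice (WT, CCL5+/+) and 2 from CCL5-/- mice. Cells with low CD11b and high F4/80, here F4/80hi, gave 1 library under each genotype label. CCL5-/- mice lack the chemokine CCL5, which draws T cells, monocytes and eosinophils into tissue. Age, treatment and the number of mice behind a library are not given in the sources used here, so the spread between replicates may be technical.

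Stefins, also called type 1 cystatins, are small proteins without a signal peptide that sit in the active-site cleft of papain-family proteases such as cathepsins B, H, L and S and block them reversibly. Humans have a single stefin A gene, CSTA, best known from the cornified layer of skin, whereas mice carry a tandem array of copies. In mouse blood and bone marrow several of these copies are known as transcripts of neutrophils and their precursors.

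In the GRCm38 annotation of GENCODE M21 the members lie within 299 kb, from position 36156811 to 36455392 of chromosome 16. Each chosen coding transcript had 3 exons and a coding sequence of 291 bases (Gm5483, Stfa1 and BC100530) or 309 bases (Stfa2l1, Stfa2 and Stfa3). Stfa2l1 (36156811 to 36161953), Gm5483 (36184212 to 36188111) and Stfa1 (36276951 to 36285373) are on the plus strand. BC100530 (36359382 to 36367748), Stfa2 (36403992 to 36408457) and Stfa3 (36450537 to 36455392) are on the minus strand. A further 3 gene rows lie between them, Gm5416, 2010005H15Rik and BC117090, all cystatin-family genes too.

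The members were not all near-identical copies. Over the 15 pairs of members, coding identity had a median of 80% of alignment columns and ranged from 74.8% to 97.9%. Stfa2 and Stfa2l1 shared 96.4%, and Stfa1 and BC100530 shared 97.9%. Stfa3 had no partner closer than 81.6%. Among the neighbours, BC117090 shared 95.9% with BC100530 and 94.2% with Stfa1, and 2010005H15Rik shared 96.9% with Gm5483. Windows of 50 bases along the chosen transcripts show what short reads could separate. The share of windows found in no transcript of another gene was 100% for Stfa3, 84.1% for Stfa2, 75.4% for Stfa2l1, 73.1% for Stfa1, 64.4% for Gm5483 and 51.1% for BC100530. For windows of 100 bases it was 100% for Stfa3, Stfa2 and Stfa2l1, 94.4% for Stfa1, 88.9% for Gm5483 and 77.7% for BC100530. Read length and the treatment of multiply mapped reads are not given in the sources used here, so values of the close pairs are uncertain one by one and the family sum is given beside them. BC100530 is also overlapped by the antisense gene Gm15845, and without strand in the counting their reads cannot be told apart.

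**Figure D1:**
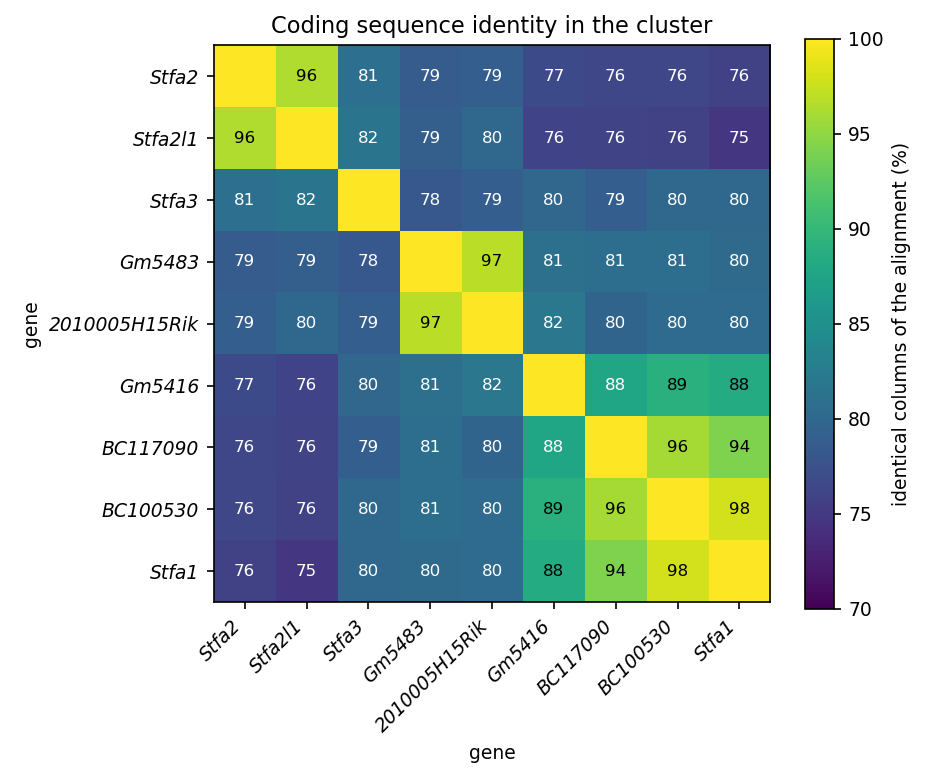
Pairwise identity of coding sequences (percent of alignment columns) among the 6 members and the 3 neighbouring genes, each row and column being 1 gene. The yellow off-diagonal cells are Stfa2 with Stfa2l1, Gm5483 with 2010005H15Rik, and Stfa1, BC100530 and BC117090 with each other, while most other cells lie near 80%.

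The promoters of all 6 members shared 4 exact words of at least 10 bases. They are shown because several members moved together across libraries. The words were picked as strings common to all 6 members, so every member holds them by selection. Over the 15 pairs of members the whole promoter windows of 300 bases were 67.8% to 90.5% identical (median 75.1%). A role of the words in expression was not tested. The sequences below come from RefSeq (GRCm38.p6), run from 105 bases before to 30 bases after the RefSeq start site, and are written 5′ to 3′ on the gene's strand with the shared words in capitals.
Stfa2l1 (chr16:36156706-36156840, plus strand): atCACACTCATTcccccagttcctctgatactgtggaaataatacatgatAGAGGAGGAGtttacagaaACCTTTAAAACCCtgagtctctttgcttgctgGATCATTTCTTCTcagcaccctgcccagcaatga
Stfa2 (chr16:36408334-36408468, minus strand): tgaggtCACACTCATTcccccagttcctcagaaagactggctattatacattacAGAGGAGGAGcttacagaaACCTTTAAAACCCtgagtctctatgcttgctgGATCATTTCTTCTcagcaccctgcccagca
Gm5483 (chr16:36184107-36184241, plus strand): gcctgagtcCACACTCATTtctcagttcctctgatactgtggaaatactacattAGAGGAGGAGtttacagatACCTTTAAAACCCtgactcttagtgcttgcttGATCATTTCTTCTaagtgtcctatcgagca
BC100530 (chr16:36367541-36367675, minus strand): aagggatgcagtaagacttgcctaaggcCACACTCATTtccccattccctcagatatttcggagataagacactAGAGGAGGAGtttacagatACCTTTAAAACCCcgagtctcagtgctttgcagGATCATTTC
Stfa3 (chr16:36455363-36455497, minus strand): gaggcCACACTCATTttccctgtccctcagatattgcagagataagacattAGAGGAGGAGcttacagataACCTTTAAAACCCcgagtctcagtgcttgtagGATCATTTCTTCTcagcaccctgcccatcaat
Stfa1 (chr16:36277043-36277177, plus strand): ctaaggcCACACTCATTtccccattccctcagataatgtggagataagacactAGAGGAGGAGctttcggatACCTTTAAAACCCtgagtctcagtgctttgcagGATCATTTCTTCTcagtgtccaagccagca
The word ACCTTTAAAACCC began between 36 and 32 bases before the start in every member but BC100530, where all 4 words sat closer to or beyond the annotated start and this one began 12 bases before it. It occurred in 9 of 32851 promoter windows of 300 bases on either strand (0.0274%), and all 9, the 6 members among them, lay in this chromosome 16 region. The word GATCATTTCTTCT occurred in 10 windows (0.0304%), 9 of them on the gene's own strand and in this region. In BC100530 it began 22 bases after the start and is printed only in part. The words CACACTCATT and AGAGGAGGAG were less particular, with 37 (0.113%) and 337 (1.03%) windows. The C/EBP-type letters TTGCNNAA were in the windows of 2 of 6 members (Stfa1 and BC100530) and in 10.8% of all windows, both strands read. The PU.1-type letters GAGGAAGT (3.2% of all windows) and the letters TATAAA (13.6%) were in 0 of 6. A match of letters is not a bound site, and their absence says only that these letters are not in this window.

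The neighbour 2010005H15Rik, which is 96.9% identical to Gm5483 in its coding sequence, held none of the 4 words. Its promoter window was 46.5% to 50.7% identical to those of the members. The gene spans 35977 bases, against at most 12668 for the other genes of the cluster. Whether its annotated start matches theirs was not tested. Its window is shown for contrast.
2010005H15Rik (chr16:36221457-36221591, plus strand): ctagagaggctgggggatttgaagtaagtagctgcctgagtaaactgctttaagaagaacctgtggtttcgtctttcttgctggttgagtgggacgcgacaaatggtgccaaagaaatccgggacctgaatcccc
It had 0, 0, 0 and 1 read in the F4/80low libraries, while Stfa1, which holds all 4 words, had 1 and 4 reads in WT and 0 and 0 in CCL5-/-. The 4 words thus stood in promoters of members with many reads, of Stfa3 with few, and of Stfa1, which had almost none. Stfa3 had 17 and 7 reads in WT and 1 and 7 in CCL5-/-. The neighbour Gm5416, which lacked only AGAGGAGGAG, had 5 and 21 reads in WT and 2 and 1 in CCL5-/-.

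**Figure D2:**
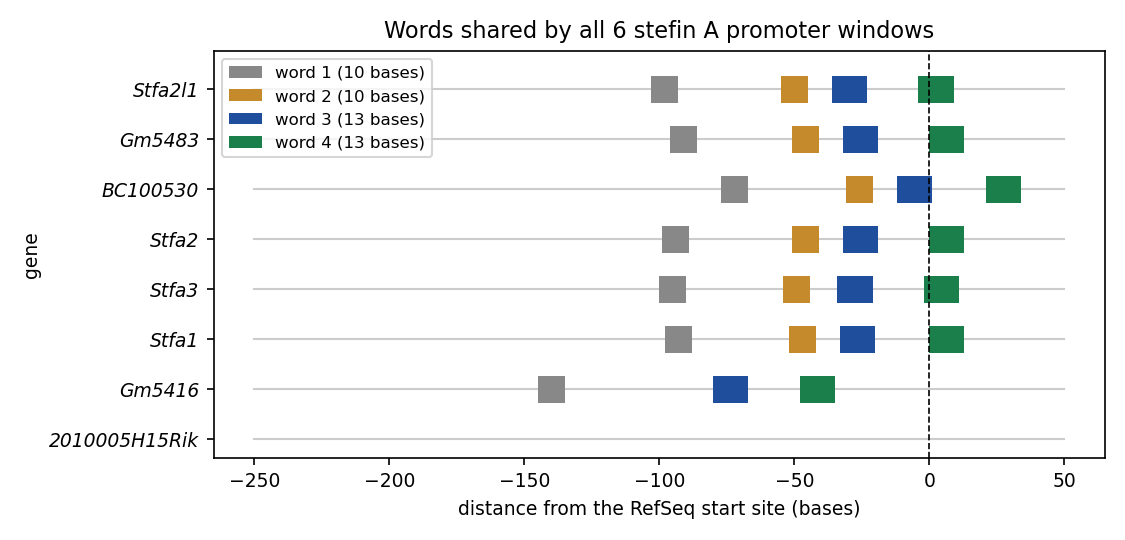
Positions of the 4 words shared by all 6 members (coloured blocks) in promoter windows of the members and of 2 neighbours, by distance in bases from the RefSeq start site (dashed line). The members' blocks keep the same order, in BC100530 they are displaced towards the gene, Gm5416 lacks word 2, and 2010005H15Rik has none.

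Not all 6 deposited libraries were separate samples. The F4/80low libraries had 9280635 to 22411342 counts, of which Rn45s, the ribosomal RNA precursor, took 58.4% and 50.03% in replicate 1 of WT and CCL5-/- and 0.844% and 1.38% in replicate 2. The CD11b gene Itgam fell from 598 to 180 CPM between the WT replicates. Between the CCL5-/- replicates it fell from 580 to 144 CPM (replicate numbers, edgeR adjusted p = 8.05e-05). The replicate numbers thus also differed in a gene of the sort gate, while the F4/80 gene Adgre1 was not called between them. Adgre1 was at 35.6 and 51.8 CPM in WT and 53.7 and 35.3 CPM in CCL5-/- (log2 difference -0.041, edgeR adjusted p = 0.923). With scaling to counts outside Rn45s the median log2 difference of all genes between replicate numbers was -0.157, against 0.0036 with TMM. Ccl5 fitted the genotype labels in this gate, at 43.8 and 131 CPM in WT and 4.07 and 3.01 CPM in CCL5-/-. The F4/80hi FPKM ratio repeated the split of reads between the replicate 1 libraries of F4/80low, crosswise to the labels. Among 6677 genes of 20 to 400 reads, chi-square values had a median of 0.335, where independent reads give at least 0.455, against 3.57 to 8.9 for the other 11 ordered pairs. Sampling noise alone would set the F4/80hi values further from that pair than they were, so both are counted as 1 set of 2 libraries. Which gate these cells came from cannot be told apart.

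In F4/80low TAMs the stefin A transcripts were highest in WT replicate 1 and lowest in CCL5-/- replicate 2. The 6 members together had 1090 and 726 reads in WT replicates 1 and 2 and 284 and 281 reads in CCL5-/- replicates 1 and 2. Scaled to library size by TMM, the WT libraries had a family sum of 187 and 23.9 CPM, and the CCL5-/- libraries had 33.0 and 10.3 CPM. Each CCL5-/- library was below the WT library of its own number, but CCL5-/- replicate 1 was above WT replicate 2, so the groups overlapped. The WT mean was 106 ± 116 CPM, and the CCL5-/- mean was 21.7 ± 16.1 CPM (SD, n = 2). The log2 change of the sum was -2.29 in the fit of all 4 libraries. It was -2.50 in the replicate 1 pair (95% counting interval -2.70 to -2.31) and -1.21 in the replicate 2 pair (-1.41 to -1.01). Without WT replicate 1 it was -0.14, and without the other libraries in turn it stayed negative, down to -3.29. Fewer cells of a type and less RNA per cell cannot be told apart in bulk libraries.

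Stfa2l1, a close copy of stefin A2, and Gm5483 carried most of the family's reads. Stfa2l1 was at 71.6 and 8.25 CPM in WT and 11.97 and 2.68 CPM in CCL5-/-. Its log2 change was -2.46 (SE 1.19, edgeR), with -2.58 and -1.62 in the replicate 1 and 2 pairs. Gm5483 was at 65.5 and 12.3 CPM in WT and 15.2 and 5.40 CPM in CCL5-/-, the flattest profile of the 4 abundant members. Its log2 change was -1.92 (SE 0.92), with -2.10 and -1.19 in the pairs. For both genes WT replicate 1 stood far above the rest and the groups overlapped in the middle. With a term for the replicate number the changes were -2.12 (SE 0.27) for Stfa2l1 and -1.64 (SE 0.26) for Gm5483. Since the members were chosen on this contrast, no p-value is given.

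BC100530, a stefin A1-like gene, had the most negative change among the 4 members with enough reads to fit. It was at 26.5 and 2.14 CPM in WT and 2.79 and 0.808 CPM in CCL5-/-, from 154, 65, 24 and 22 reads. The log2 change was -3.03 (SE 1.30), with -3.25 and -1.40 in the pairs and -2.38 (SE 0.44) with the replicate term. Its near-copy Stfa1 had 5 reads in all, with 1 and 4 in the WT libraries, so nothing can be said of its change. The floor of 3 reads was 0.515 CPM in WT replicate 1 and 0.0986 CPM in WT replicate 2.

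Stfa2 and Stfa3 differed between the pairs. Stfa2, the gene of stefin A2, was at 20.6 and 0.789 CPM in WT and 2.91 and 1.18 CPM in CCL5-/-, so WT replicate 2 was the lowest of the 4 libraries. The replicate 1 pair gave a log2 ratio of -2.83 (counting interval -3.51 to -2.20) and the replicate 2 pair gave 0.57 (-0.23 to 1.40). Stfa3 had 17 and 7 reads in WT and 1 and 7 reads in CCL5-/-. Its pair ratios were -4.65 (-10.0 to -1.98) and 0.16 (-1.58 to 1.90), and the second could not be told from no change at this depth. For Stfa2 the fit gave -2.40 (SE 1.43), and 1.34 without WT replicate 1, a turn of sign that rests on 24 reads in WT replicate 2.

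**Figure D3:**
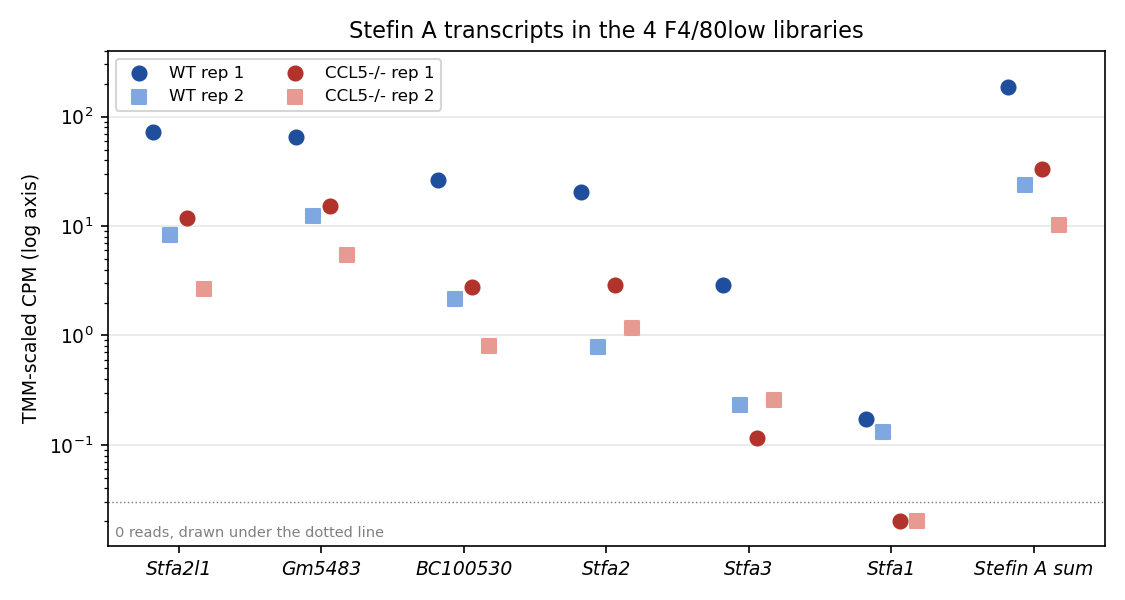
TMM-scaled CPM (log axis) of each member and of their sum in the 4 F4/80low libraries, 1 point per library, circles for replicate 1 and squares for replicate 2. WT replicate 1 (dark blue) is the highest point for every gene, and the remaining order differs for Stfa2 and Stfa3.

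Across members, 5 of 5 with reads in both libraries were lower in CCL5-/- in the replicate 1 pair. In the replicate 2 pair 3 of 5 were lower, the exceptions being Stfa2 and Stfa3. Over all genes tested the median pair log2 ratios were 0.00019 and -0.024, so neither direction prevailed there. Of the 4 members that passed the low-count filter, 4 were at least 2-fold lower in the replicate 1 pair (background 5.03% of 12710 genes) and 3 in the replicate 2 pair (background 5.72%). Both CCL5-/- libraries were below both WT libraries for 0 of these 4 members, against 8.24% of the genes tested, and above both for 0 of 4, against 8.36%. These counts come from the contrast that chose the genes and are given as description only. The authors' deposited table, made from the same counts, lists log2 changes from -0.059 (Stfa1) to -0.579 (Gm5483), and -1.68 for Ccl5. How that table scaled its changes is not given, so the sizes are not set against the fit.

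The family's make-up shifted less than its level. Gm5483 made up 35.0% and 51.7% of the family's reads in WT and 46.1% and 52.3% in CCL5-/-. Stfa2l1 made up 38.3% and 34.6% in WT and 36.3% and 26.0% in CCL5-/-. Within the close pair of Stfa2 and Stfa2l1, Stfa2 took 22.3% of the reads in WT replicate 1 (Wilson 95% interval 19.0 to 26.1). In CCL5-/- replicate 1 its share was 19.5% (13.6 to 27.2). It took 8.73% in WT replicate 2 (5.93 to 12.7) and 30.5% in CCL5-/- replicate 2 (22.5 to 39.8). The intervals of the replicate 2 libraries do not meet, while those of the replicate 1 libraries do. Counted together, which removes any exchange of reads between the copies, Stfa2 and Stfa2l1 had log2 ratios of -2.63 and -1.23 in the pairs. Stfa1, BC100530 and BC117090 together had -3.42 and -1.15, and Gm5483 with 2010005H15Rik had -2.10 and -1.18. In the replicate 2 pair these 3 subgroups lay close together, while the genes without a close copy did not, with 0.16 for Stfa3 (7 reads in each library) and -4.23 for the neighbour Gm5416 (21 reads and 1 read).

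**Figure D4:**
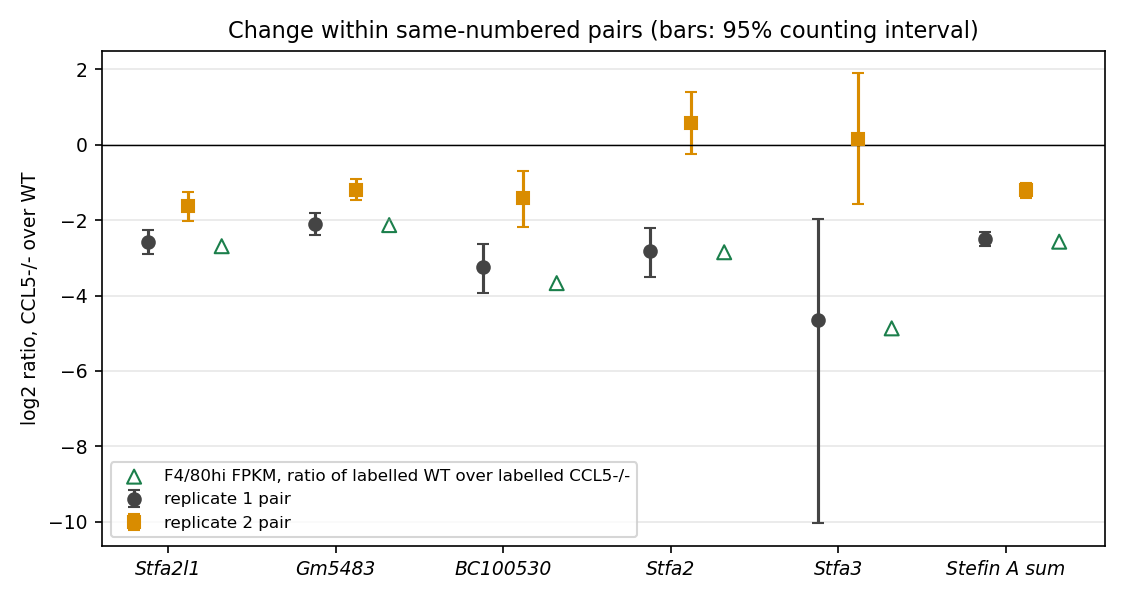
Log2 ratio of CCL5-/- over WT within the replicate 1 pair (dark circles) and the replicate 2 pair (orange squares), with 95% counting intervals, for 5 members and the family sum. Open triangles give the F4/80hi FPKM ratio of the library labelled WT over that labelled CCL5-/-, and they track the dark circles, whose reads these libraries share.

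Of the neighbours, BC117090 had 55 and 15 reads in WT and 5 and 12 reads in CCL5-/-, with log2 ratios of -4.02 and -0.16 in the pairs. Gm5416 had 5 and 21 reads in WT and 2 and 1 reads in CCL5-/-. Scaled to library size, Gm5416 was at 0.859 and 0.690 CPM in WT and 0.233 and 0.0367 CPM in CCL5-/-. Including the neighbours left the log2 change of the sum at -2.32.

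The 4 members fitted were also lower in replicate 2 than in replicate 1, in both genotypes. This difference is given without a p-value for them, because it shares WT replicate 1, on which the choice of members leaned, with the contrast between genotypes. In edgeR with a genotype term Stfa2l1 had a log2 difference of -2.69 (SE 0.27), with -3.12 in WT and -2.16 in CCL5-/-. Gm5483 had -1.98 (SE 0.26), with -2.41 and -1.496. BC100530 had -2.91 (SE 0.45), with -3.63 and -1.79. For these 3 genes the difference was smaller in CCL5-/-, which was not tested. Stfa2 had -3.12 (SE 0.91), with -4.71 and -1.31. Stfa3, not fitted for want of reads, had -3.67 in WT and 1.15 in CCL5-/-. The calls that follow lean on WT replicate 1 in the same way and are given as description only. By the table-wide adjusted p 3 of the 4 members fitted were called lower, where 18.0% of all genes were. In the other direction 0 were called higher, where 13.9% were. The count was 4, Stfa2 included, with scaling to counts outside Rn45s, with no low-count filter and in DESeq2. It was 0 without the genotype term. On leaving out 1 library, also without that term, the count was 0 without WT replicate 1, WT replicate 2 or CCL5-/- replicate 2 and 5 without CCL5-/- replicate 1. The replicate number moved with the Rn45s share and with Itgam, and these cannot be told apart.

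The F4/80hi table gives the same reads per transcript length, which allows levels to be compared between genes. In the library labelled CCL5-/-, Stfa2l1 was at 417 FPKM and Gm5483 at 406 FPKM, followed by BC100530 at 144.8, Stfa2 at 102 and Stfa3 at 20.1 FPKM, with Stfa1 listed at 0. In the library labelled WT they were at 64.8, 92.7, 11.4, 14.2 and 0.69 FPKM, so Gm5483 stood first there. The authors' bounds of Stfa2l1 (165 to 669) and Gm5483 (161 to 650) overlapped almost wholly, and those of BC100530 (54.8 to 235) and Stfa2 (35.2 to 169) overlapped too. Summed over members, the label CCL5-/- had 1090 FPKM and the label WT 184 FPKM, a log2 difference of 2.56 with a pseudocount of 1 FPKM. Of the members, 5 were at least 2-fold higher, where 2.35% of 11670 genes were, and 0 were at least 2-fold lower, where 1.58% were. Stfa3 reached the minimum of 1 FPKM only in the library labelled CCL5-/-. These counts rest on reads of the contrast that chose the members and are given as description only. Ccl5 itself was higher under the label CCL5-/- too (log2 difference 3.12). It thus goes against these labels, and the sample titles name the opposite genotype for each library. Under the titles the stefin A difference has the sign of the F4/80low one and, resting on the same reads, adds no replicate to it.

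Cysteine cathepsins, the proteases that stefins inhibit, had no call between genotypes. All 10 of the list were tested between genotypes and 0 passed in either direction (edgeR adjusted p under 0.05), 0 had an unadjusted p under 0.05, and 0 passed in DESeq2 or with the replicate term. Across all 12710 genes edgeR called 0% without the replicate term. The list's median log2 change was -0.22, against -0.014 over all genes, with 0.14 and -0.58 in the pairs. Ctsl, the gene of cathepsin L, was at 993 and 1263 CPM in WT and 1081 and 1096 CPM in CCL5-/-. Ctsb, of cathepsin B, was at 847 and 958 CPM in WT and 875 and 797 CPM in CCL5-/-. These abundant cathepsins varied little in any library. Ctsk, of the collagen-degrading cathepsin K, varied most, at 14.95 and 77.7 CPM in WT and 47.7 and 22.3 CPM in CCL5-/-.

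Other inhibitors of the cystatin superfamily gave 0 calls between genotypes among the 5 tested of 9 listed (median log2 change -0.34). Cstb, which encodes stefin B, the widely expressed relative of stefin A, was at 195 and 477 CPM in WT and 224 and 336 CPM in CCL5-/-. It was higher in replicate 2 (log2 difference 0.94, edgeR adjusted p = 0.0125), the direction opposite to the stefin A members. Cst3, of the secreted inhibitor cystatin C, was at 694 and 1258 CPM in WT and 650 and 893 CPM in CCL5-/-. Cst7, of cystatin F, an inhibitor of immune cells, had a log2 change of -0.81 (SE 0.52). Csta1, the cystatin A gene just outside the span, had 0 reads in all 4 libraries.

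Markers of neutrophils moved with the stefin A sum. Of 28 listed genes 27 had a row and 23 were tested, with a median log2 change of -1.67, and with -1.85 and -0.67 in the pairs, where all genes had 0.00019 and -0.024. The macrophage and monocyte list had medians of 0.15 and -0.55 in the pairs. The lower level in the replicate 2 pair was thus not particular to neutrophil genes. In edgeR 0 of the neutrophil list passed between genotypes and 2 were lower at an unadjusted p under 0.05, as were 30 of all 12710 genes. In DESeq2 0 of the list passed. With the replicate term 3 were called lower in edgeR, where 0.0787% of all genes (10) were, and 7 in DESeq2, which called 23 genes in all. The 3 were Camp, the antimicrobial cathelicidin (log2 change -3.72, edgeR adjusted p = 0.0275), Olfm4, a granule protein of a neutrophil subset (-2.87, edgeR adjusted p = 0.0237), and Il1f9, an interleukin 1 family cytokine (-1.60, edgeR adjusted p = 0.0128). S100a9, of an abundant calcium-binding protein of neutrophils, was at 1834 and 366 CPM in WT and 358 and 197 CPM in CCL5-/-. Between replicate numbers 17 of the 23 were called lower in replicate 2 and 0 higher, where 18.0% and 13.9% of all genes were. The neutrophil list was chosen with earlier results of these data known, and WT replicate 1 enters both contrasts. Its calls and p-values are therefore given as description only. Granule genes of neutrophil precursors were low but not all at 0. Elane and Mpo stayed at or below 0.172 and 0.344 CPM in every library, Prtn3 was at 0.624 to 1.37 CPM and Ctsg at 1.14 to 1.89 CPM. Granule genes of later stages were higher in WT replicate 1, where Ngp, Ltf and Camp reached 92.4, 26.6 and 10.8 CPM. In the other libraries this did not hold throughout. In WT replicate 2 Ltf was at 1.28 and Camp at 1.78 CPM, below Ctsg at 1.81 CPM. In CCL5-/- Camp was at 0.465 and 0.220 CPM, below Prtn3 (0.697 and 0.624) and Ctsg (1.16 and 1.14).

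The summed level of the neutrophil list was 4690 and 754 CPM in WT and 1114 and 436 CPM in CCL5-/-, the order of the stefin A sum. The stefin A sum spanned 18.1-fold from its lowest to its highest library and the neutrophil list 10.8-fold. Per 100 CPM of neutrophil markers the stefin A sum was 3.99 and 3.16 CPM in WT and 2.96 and 2.37 CPM in CCL5-/-, a span of 1.68-fold. Without S100a8 and S100a9 in the list it was 9.94 and 8.34 in WT and 5.45 and 6.53 in CCL5-/-. The part of neutrophil RNA in the stefin A difference was not tested. The macrophage and monocyte list had 16 of 16 genes tested and a summed level of 5992 to 10640 CPM, with 0 called between genotypes. Its leading genes include Lyz2, the macrophage lysozyme (2115 to 5351 CPM), and Cd14, a co-receptor for lipopolysaccharide (1009 to 1885 CPM).

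**Figure D5:**
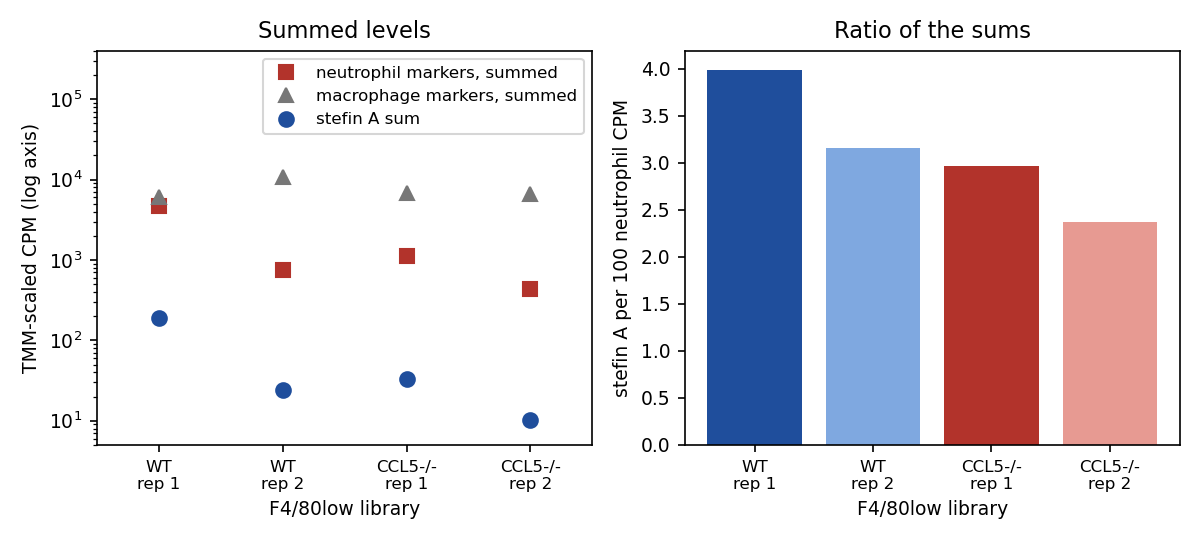
Left, summed TMM-scaled CPM (log axis) of the stefin A members, neutrophil markers and macrophage markers in each F4/80low library. Right, stefin A CPM per 100 CPM of neutrophil markers, with bars from 0, which fall from 3.99 in WT replicate 1 to 2.37 in CCL5-/- replicate 2.

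Defining markers of keratinocytes, another known source of stefin A, were at or near 0. Of 10 squamous markers 4 (Trp63, Ivl, Lor and Dsg3) had 0 reads in all libraries, and the list summed to between 2.33 and 3.34 CPM, most of it from Krt10. Mast cell and basophil genes summed to between 30.0 and 56.6 CPM, without the order of the stefin A sum. Intestinal epithelial genes summed to 182 CPM in WT replicate 1 and to between 103 and 115 CPM in the others. Most of this came from Krt20, at 149.5 and 84.9 CPM in WT and 87.1 and 74.1 CPM in CCL5-/-. Krt8, Krt18 and Cdh1 were at 1.95 to 18.4 CPM, and Krt19 was at or below 1.54 CPM. Epcam, Cldn7, Vil1, Lgals4 and Muc2 were at or below 0.697 CPM in every library. Not all genes of these lists had enough reads to test, 1 of 10 squamous, 5 of 10 intestinal and 5 of 6 mast cell genes. Of those tested, 0 were called between genotypes in edgeR or DESeq2 and 0 had an unadjusted p under 0.05.

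The genes whose profile over the 4 libraries was most like the family sum were found among 8414 genes by the root-mean-square difference of centred log2 CPM. They were Fpr1, the formyl peptide receptor of phagocytes (0.17), Chil1, a chitinase-like secreted protein (0.198), and Asprv1, a retroviral-like aspartic protease (0.217). Lcn2 (0.28), Hdc (0.298), S100a8 (0.341), Rhov (0.341) and Csf3r (0.353) followed, and 4 of these 5 are in the neutrophil list. Fpr1 was at 40.5 and 5.82 CPM in WT and 9.18 and 3.01 CPM in CCL5-/-. Asprv1 was at 107 and 9.27 CPM in WT and 17.2 and 4.48 CPM in CCL5-/-. With 4 libraries such likeness is a description. A minimum mean log2 CPM of 5 in place of 3 left Fpr1, Chil1, Asprv1, Lcn2 and Rhov out of the comparison by their level. Hdc, S100a8 and Csf3r were still compared and remained among the 8.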

How the data were processed

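RNA from sorted TAMs was sequenced after Trizol extraction and Illumina TruSeq library preparation, per the labels' protocols. The deposited count table holds raw read counts per gene. The authors' comparison table holds a normalised signal (counts over 1 factor per library), a log2 fold change with its standard error, a score (test statistic) and p-values, per the file headers. The F4/80hi table holds the authors' FPKM with bounds. Per the submitters' processing notes STAR, HTSeq, DESeq2, TopHat2 2.1.1 and Cufflinks 2.2.1 were among the tools, and mm9 and mm10 among the builds; which made which table, and strand use, are not given in the sources used here.

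Groups follow the cell population field. Counts were tested with edgeR 4.0.16 (R 4.3.3; filterByExpr, TMM, robust quasi-likelihood F test, two-sided), with Benjamini-Hochberg adjustment at 0.05 over 12710 genes. SE is the log2 change over the square root of F. CPM is TMM-scaled. Sums take the fit's library sizes and have no p. Replicate 2 was tested against replicate 1 with a genotype term; the p-values planned there for members are not printed, since WT replicate 1 enters both contrasts. DESeq2 1.42.0 was an alternative. Pair intervals are exact binomial, and intervals and floors cover counting error only. Coding sequences were aligned with Biopython 1.88. The fits were checked on simulated counts. Members and lists were chosen with earlier results of these data known; the shared words, subgroups and neutrophil ratio were added on seeing the sequences and values. Named genes were the members and neighbours, Ccl5, Rn45s, any cathepsin or cystatin, and the 8 nearest profiles. They also took in the highest or called markers of each list, near-zero markers, and Adgre1, the F4/80 gene. F4/80hi has no test, and the depth behind its FPKM is unknown.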

Additional observations from a re-analysis of the deposited data

Results flagged for a closer look

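The stefin A sum had a log2 difference of 2.56 (CCL5-/- over WT, by label) in the F4/80hi libraries and was negative in both F4/80low pairs, so the gates moved in opposite directions under the labels. The difference between the gates was not tested, with 1 library per label. Ccl5 goes against the F4/80hi labels, and these values repeat the reads of the F4/80low replicate 1 pair.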

How the results depend on the processing

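The log2 change of the stefin A sum stayed negative under the 13 alternatives run, between -3.29 and -0.14, and both ends come from leaving out 1 library (CCL5-/- replicate 1 and WT replicate 1). With the replicate block it was -1.86. The labels' numbers pair nothing by a stated source, though same-numbered libraries deviated together (r = 0.727 across 12710 genes). Genes called between genotypes rose from 0 to 10 with the replicate block, 23 with the block in DESeq2 and 1 in DESeq2 without it, and ranged from 0 to 4 on leaving out 1 library (1 without WT replicate 1, 4 without WT replicate 2, 1 without CCL5-/- replicate 2). The cause was not tested. Reversed values were 0.575 (replicate 2 pair) and 1.34 (without WT replicate 1; range on leaving out 1 library -3.39 to 1.34) for Stfa2 and 0.16 (replicate 2 pair) for Stfa3. Between replicate numbers 3 members were called, 4 with scaling outside Rn45s, no low-count filter or DESeq2, 0 without a genotype term and 0 to 5 on leaving out 1 library. Genes called there were 4047, between 2700 and 4637 under the other settings, and 2067 to 3215 on leaving out 1 library. Fits that leave out 1 library take the lone library of a group to vary like the other group. Between replicate numbers these fits hold no genotype term. The counts of members called between replicate numbers are description only, since WT replicate 1 also entered the choice of members. At the higher level minimum only 3 of the 8 genes most like the sum were abundant enough to be compared, and these 3 stayed among the 8. For F4/80hi a pseudocount of 0.1 gave 2.57 for the sum, and the sample titles reverse every value: -2.56 for the sum, -2.76 for Stfa2, -3.64 for Stfa3, -2.67 for Stfa2l1, -3.56 for BC100530 and -2.12 for Gm5483. Depth limits Stfa1 and Stfa3, and read sharing limits BC100530 and Gm5483.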

Other observations

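Ahsg and Kng1, cystatin-superfamily genes of liver, had 8.02 and 2.21 CPM in CCL5-/- replicate 1. In the other 3 F4/80low libraries Ahsg had at most 0.0329 CPM and Kng1 had 0 reads.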
